A study of Bos taurus with 6 samples.

Results

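Transcripts of kinases, phosphatases and regulators of their signalling were compared between MAC-T cells given an inhibitor of miR-375 and cells given a control inhibitor. A gene was included when its symbol in the study's gene tables began with any of 28 family prefixes, such as MAP3K, PIK3, CDK, PPP, PRK or EPH, and its identifier was in the count files. *PTPN5* and *PDE4A* met this rule and were left out by name. This gave 24 of 29154 genes, and 14 of the prefixes had a member. Only 1410 genes carried a symbol, because 1997 rows of the main gene table were at hand. The families with a member are therefore represented by a single gene or a few genes, and the other prefixes by none.

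MAC-T is an established line of bovine mammary epithelial cells. The cells were transfected with 100 nM of the miR-375 inhibitor, an oligonucleotide that blocks this microRNA, or with 100 nM of the NC inhibitor, a negative control, and RNA was sequenced 48 h later. Each group had 3 libraries. Total counts on genes were 14479278, 16213226 and 16047812 in NC inhibitor replicates 1, 2 and 3, and 15228121, 14903099 and 16324556 in miR-375 inhibitor replicates 1, 2 and 3. At these depths a count of 0 allows a level of up to 0.184 to 0.207 CPM (counts scaled to the size of the library, here by total counts alone), taking 3 counts as the limit and counting error alone. The labels do not say that the libraries of a group came from separate cultures, so p-values measure only the spread between these libraries, which may be technical. The level of miR-375 itself was not analysed here. By the chi-square over degrees of freedom between pairs of libraries, NC inhibitor replicate 3 lay closer to miR-375 inhibitor replicates 3 (3.72) and 1 (4.55) than to NC inhibitor replicates 1 (7.36) and 2 (4.75).

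Protein kinases transfer phosphate from ATP to proteins, phosphatases remove it, and regulatory subunits decide where and when both kinds of enzyme act. Growth factor receptors at the cell surface pass their signal through Ras and the MAPK cascade and through phosphoinositide 3-kinase (PI3K), which makes a membrane lipid that recruits further kinases. In the mammary epithelium these routes are known for their part in growth, survival and milk synthesis, and Eph receptors and atypical protein kinase C for their part in cell contacts and polarity.

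The identity of the cells was examined with marker genes among the paired symbols, which hold no keratin and no casein. The 6 epithelial markers were all detected and summed to 139.7, 142 and 144 CPM in the NC inhibitor libraries and to 129, 124 and 139 CPM in the miR-375 inhibitor libraries. *CXADR* was the most abundant, while *MUC20*, with 0 to 3 counts, and *RIPK4*, with 1 to 4 counts, were near 0. *CLDN1*, a tight junction protein, fell by 0.53 on the log2 scale (SE 0.13, adjusted p = 0.0219 with edgeR), from 13.7, 11.2 and 9.88 CPM to 8.55, 7.71 and 7.75 CPM. Its adjusted p was 0.491 without NC inhibitor replicate 1, 0.0560 without NC inhibitor replicate 2, and 0.0649 and 0.0971 without miR-375 inhibitor replicates 1 and 3. The adjusted p was also above the threshold when genes under 10 counts in total were dropped (0.176) or filterByExpr was used (0.178). Over the alternatives it ranged from 0.000668 to 0.491, and DESeq2 gave no adjusted p for *CLDN1*. The groups did not overlap. The unadjusted p was 0.000239 with edgeR, at most 0.0103 with a library left out, and 0.00275 with DESeq2.

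Markers of other cell types were uneven. The 6 fibroblast markers summed to 1549, 1544 and 1533 CPM with the NC inhibitor and to 1579.5, 1632 and 1602 CPM with the miR-375 inhibitor. *COL6A1*, a collagen chain, was the most abundant of them, whereas *LUM* (11, 7 and 0 counts against 0, 0 and 2), *BGN* and *COL6A6* were at or near 0. Neither *COL6A1* (log2 fold change 0.11, adjusted p = 0.291, 0.0163 unadjusted, groups that did not overlap) nor *LUM* (adjusted p = 0.224) passed the test, though *LUM* did without NC inhibitor replicate 3 (0.0282, in a range of 0.0282 to 0.798 over the alternatives). The 8 leukocyte markers summed to 15, 17 and 16 counts against 26, 18 and 20, *CD96* gave the most counts, and *CD86* and *CD40LG* were at 0 in all 6 libraries. Of the endothelial pair *JAM2* was detected and *ERG* gave 1 count in all. The epithelial sum was lower and the fibroblast and leukocyte sums were higher in each miR-375 inhibitor library than in each NC inhibitor library, and their part in the results was not tested. Of the epithelial markers, *MUC20* and *RIPK4* had estimates above 0 and the others below 0. Of the tested leukocyte markers, all with few counts, *IL2RG* and *SASH3* had estimates below 0 and the others above 0. The fibroblast markers did not all differ in the same direction. *COL6A1* and *COL6A2* had estimates above 0 (0.11 and 0.09), while *FSTL1*, at 609 to 634 CPM in the 6 libraries, had an estimate of -0.014 and overlapping groups. *LUM*, with few counts, had an estimate below 0 (-2.95, SE 1.11), also with overlapping groups. With a library left out the estimate of *LUM* ran from -5.60 to -2.13. *BGN*, with 0, 4 and 0 counts against 1, 0 and 1, took both signs with a library left out (-1.41 to 2.66). Fewer cells of a type and less RNA per cell cannot be told apart in such bulk libraries.

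Of the 24 genes, 17 had at least 1 count in any library and were tested. The other 7, *MAP3K7CL*, *CSNKA2IP*, *EPHA3*, *EPHA6*, *EPHB1*, *DUSP9* and *DGKK*, had 0 counts in all 6 libraries. An average of at least 10 counts per library was reached by 15 genes, and *DGKG* and *EPHB3* were below it. No gene of the 17 passed an adjusted p of 0.05 with edgeR, where 1.69% of all 20755 tested genes did. That share rested on 350 genes, which became 0 with a minimum of 10 counts in total, with filterByExpr and without NC inhibitor replicate 1, and 756 without NC inhibitor replicate 3. DESeq2 gave an adjusted p for 8 of the 17 and called 0 of these, where it called 1.11% of the 6671 genes given one. At an unadjusted p under 0.05, edgeR called 4 of the 17 and DESeq2 called 1, *PPP2R3A*, where DESeq2 called 5.63% of all tested genes. The 3 lower genes were *PPP2R3A*, *MAP3K13* and *RPS6KA6*, where 5.96% of all tested genes were called lower, and the 1 higher gene was *NEK11*, where 4.67% were called higher. Among genes that averaged 10 counts or more these shares were 8.13% and 6.45%. The count of 4 was 2 without NC inhibitor replicate 1 and 1 without miR-375 inhibitor replicate 1. Over all tested genes, 1543 of 20468 and 1627 of 20546 were called in these settings, and 2206 of 20755 with all libraries. The adjusted count of 0 was 1 (*PPP2R3A*) without NC inhibitor replicate 3, where 756 of 20495 genes passed. The libraries of both groups did not overlap for 3 genes that were lower (*MAP3K13*, *PPP2R3A*, *RPS6KA6*) and 3 that were higher (*CAMK2N2*, *NEK11*, *PPP1R3F*) with the miR-375 inhibitor, out of 15, against 8.83% and 9.06% of all genes of that abundance. The estimate was below 0 for 10 of the 15 genes and above 0 for 5, where it was below 0 for 7155 and above 0 for 6999 of all 14154 genes of that abundance. The median log2 fold change was -0.05 over the 17 tested genes and -0.0019 over all tested genes. The median of the members was -0.085 without NC inhibitor replicate 1, -0.027 without NC inhibitor replicate 3 and -0.034 without miR-375 inhibitor replicate 2. Summed over the members, the level was 648, 672 and 685 CPM with the NC inhibitor and 634, 618 and 662 CPM with the miR-375 inhibitor, so the groups overlapped.

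**Figure D1:**
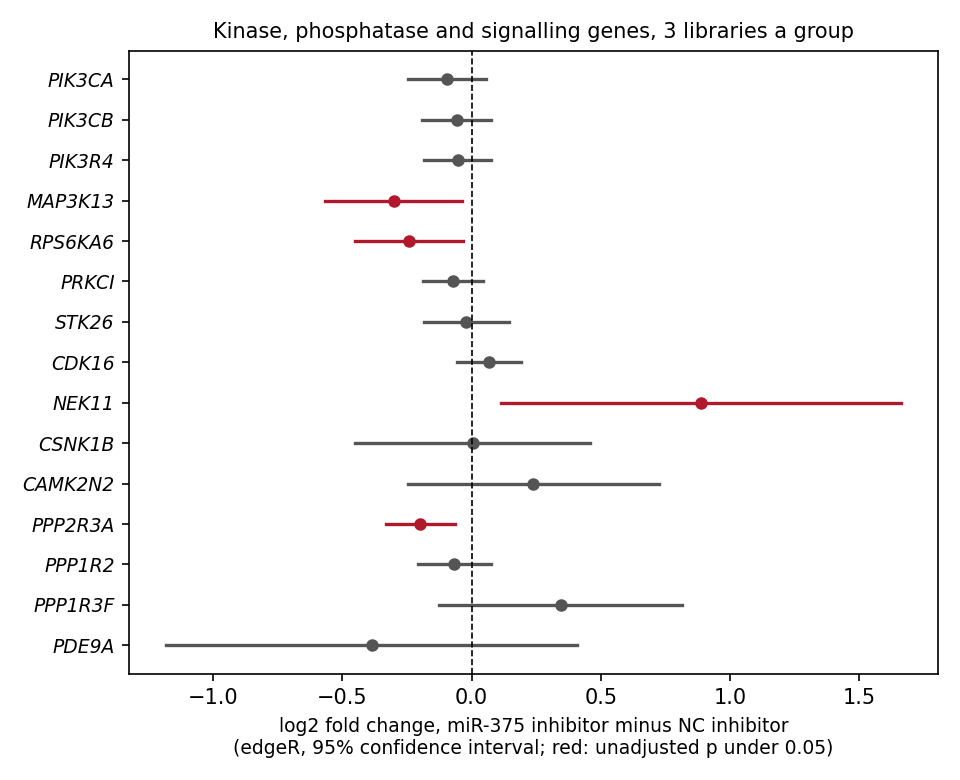
Log2 fold change (miR-375 inhibitor minus NC inhibitor, horizontal axis) of the 15 genes that averaged 10 counts or more, with the 95% confidence interval from edgeR as a line. The intervals of *PPP2R3A*, *MAP3K13*, *RPS6KA6* and *NEK11*, in red, do not include 0, and none of the 15 had an adjusted p under 0.05.

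The PI3K genes came first, because the study's introduction cites *PIK3CA* as a target of human miR-375 in colorectal cancer. It does not claim this target for MAC-T cells. Only RNA was measured here, so an effect on the protein was not tested. *PIK3CA* (ENSBTAG00000009232) encodes the alpha catalytic subunit of class I PI3K. It was measured at 52.0, 57.8 and 61.7 CPM in NC inhibitor replicates 1 to 3 and at 52.4, 48.6 and 59.3 CPM in miR-375 inhibitor replicates 1 to 3. The groups overlapped, since the NC inhibitor library with the lowest level lay below 2 of the miR-375 inhibitor libraries. The means were 57.2 ± 4.90 CPM and 53.5 ± 5.41 CPM (SD, n = 3 each). The log2 fold change was -0.10 (SE 0.08, 95% confidence interval -0.25 to 0.05), a difference of -6.46% with an interval of -15.8% to 3.89%. The difference did not pass the test, with an adjusted p of 0.711, and the exact two-sided permutation test gave p = 0.5, where 3 against 3 libraries can give no less than 0.1. Left out in turn, the libraries moved the estimate between -0.18 and -0.03, and without miR-375 inhibitor replicate 3 the adjusted p was 0.435 (0.0360 unadjusted), in a range of 0.435 to 0.915 over the alternatives. In the fit of all 6 libraries, an increase of *PIK3CA* RNA above 3.89% lay outside the interval. That limit holds for this fit only and may be higher with a library left out, where the estimate came as near to 0 as -0.03.

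*PIK3CB* (ENSBTAG00000006909) encodes the beta catalytic subunit, which also responds to G protein-coupled receptors. It gave 72.8, 77.2 and 79.0 CPM against 73.2, 67.4 and 79.4 CPM, a log2 fold change of -0.06 (SE 0.07, adjusted p = 0.765). The miR-375 inhibitor libraries held both the lowest and the highest value, so the groups overlapped, and the estimate was -0.0015 without miR-375 inhibitor replicate 2 and -0.12 without miR-375 inhibitor replicate 3. *PIK3R4* (ENSBTAG00000020787) encodes the regulatory subunit of the class III enzyme, which serves autophagy and endosomal traffic. Its level was 71.1, 74.7 and 77.2 CPM against 71.7, 71.8 and 71.3 CPM, a log2 fold change of -0.05 (SE 0.06, adjusted p = 0.776). The miR-375 inhibitor libraries lay within 1 CPM of each other and inside the range of the NC inhibitor libraries, and the estimate was -0.085 without NC inhibitor replicate 1 and -0.027 without NC inhibitor replicate 3. The annotation of another assembly places *PIK3CA* over *KCNMB3*, and the sources do not state whether counting used strand, so reads of these genes may not be told apart. The same annotation places *PPP2R3A* over a long noncoding RNA, *PIK3CB* and *PRKCI* over pseudogenes, and *NEK11* over a small nuclear RNA. It also places *PIK3CA* over a small nucleolar RNA and the marker *CLDN1* over a transfer RNA.

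**Figure D2:**
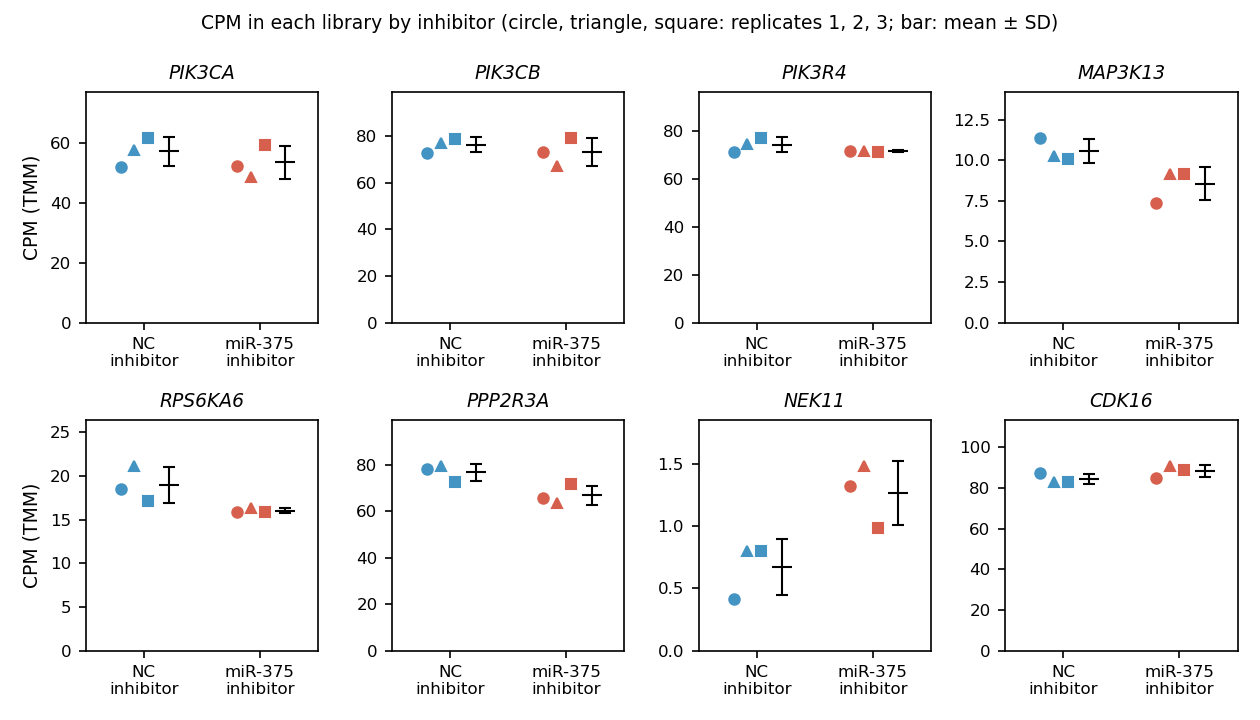
CPM (vertical axis, normalized by TMM) of 8 genes in each of the 6 libraries, by inhibitor, with replicates 1, 2 and 3 as circle, triangle and square and the mean ± SD beside them. The groups do not overlap for *MAP3K13*, *RPS6KA6*, *PPP2R3A* and *NEK11*, and they overlap for *PIK3CA*, *PIK3CB*, *PIK3R4* and *CDK16*.

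*MAP3K13* (ENSBTAG00000017103) encodes a leucine zipper-bearing kinase that activates the JNK branch of the MAPK cascade. It gave 11.4, 10.2 and 10.1 CPM in the NC inhibitor libraries and 7.36, 9.13 and 9.17 CPM in the miR-375 inhibitor libraries. Every NC inhibitor library was above every miR-375 inhibitor library, and miR-375 inhibitor replicate 1 was the lowest of the 6. The log2 fold change was -0.30 (SE 0.13, 95% confidence interval -0.57 to -0.04), or -18.9%, and edgeR gave an adjusted p of 0.362 (0.0267 unadjusted). The unadjusted p was 0.173 without miR-375 inhibitor replicate 1 and 0.0988 without NC inhibitor replicate 1, and DESeq2 gave 0.0793.

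*RPS6KA6* (ENSBTAG00000002015) encodes a member of the p90 ribosomal S6 kinases, a family that acts downstream of ERK. Its levels were 18.5, 21.2 and 17.1 CPM against 15.8, 16.4 and 15.8 CPM. The groups did not overlap, and the miR-375 inhibitor libraries (SD 0.312 CPM) lay closer together than the NC inhibitor libraries (SD 2.06 CPM), with NC inhibitor replicate 2 the highest. The log2 fold change was -0.24 (SE 0.10, 95% confidence interval -0.45 to -0.03), or -15.5%, with an adjusted p of 0.351 (0.0244 unadjusted). Without NC inhibitor replicate 2 the estimate was -0.15 and the unadjusted p 0.212, and that p was 0.0602 and 0.0550 without miR-375 inhibitor replicates 1 and 3, and 0.0681 with DESeq2. *DUSP9*, a phosphatase that inactivates MAP kinases, and *MAP3K7CL* had 0 counts in all 6 libraries.

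*PRKCI* (ENSBTAG00000001403) encodes an atypical protein kinase C that helps set the polarity of epithelial cells. It was at 156, 165 and 177 CPM against 164, 150.1 and 159 CPM, a log2 fold change of -0.07 (SE 0.06, adjusted p = 0.711), and the groups overlapped. The estimate was -0.12 without NC inhibitor replicate 1, -0.023 without NC inhibitor replicate 3 and -0.038 without miR-375 inhibitor replicate 2. *STK26* (ENSBTAG00000019652) encodes a kinase of the germinal centre kinase family that also takes part in polarity. Its values of 31.9, 33.9 and 36.9 CPM against 33.4, 33.5 and 34.4 CPM gave a log2 fold change of -0.02 (SE 0.08, adjusted p = 0.957), and the estimate was 0.038 without NC inhibitor replicate 3. *CDK16* (ENSBTAG00000016769), a cyclin-dependent kinase activated by cyclin Y, gave 87.1, 82.7 and 82.9 CPM against 85.0, 90.9 and 88.7 CPM. NC inhibitor replicate 1 lay above miR-375 inhibitor replicate 1, so the groups overlapped, and the log2 fold change was 0.07 (SE 0.06, adjusted p = 0.765).

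*NEK11* (ENSBTAG00000009258) encodes a NIMA-related kinase that takes part in the checkpoint response to damaged DNA. It was counted 6, 13 and 13 times in the NC inhibitor libraries and 20, 22 and 16 times in the miR-375 inhibitor libraries, or 0.411, 0.797 and 0.803 CPM against 1.33, 1.49 and 0.984 CPM. The groups did not overlap, all miR-375 inhibitor libraries lay higher, and NC inhibitor replicate 1 was the lowest. The log2 fold change was 0.89 (SE 0.39, 95% confidence interval 0.12 to 1.66), with an adjusted p of 0.357 (0.0251 unadjusted). At these low counts the interval in percent ran from 8.31 to 216. The unadjusted p was 0.106 without NC inhibitor replicate 1, 0.0581 and 0.0890 without miR-375 inhibitor replicates 1 and 2, and 0.0849 with DESeq2.

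*CSNK1B* (ENSBTAG00000039794) encodes casein kinase I beta, a kinase of the casein kinase I family. It was counted 45, 40 and 40 times against 37, 47 and 39 times, a log2 fold change of 0.01 (SE 0.23, adjusted p = 0.997) that was -0.05 without NC inhibitor replicate 2 or 3 and -0.13 without miR-375 inhibitor replicate 2. Its reads may be shared with close relatives of the family, and how these were counted is not given in the sources used here. *CSNKA2IP*, named as a protein that binds a casein kinase II subunit, was at 0 counts. *CAMK2N2* (ENSBTAG00000005657) encodes a protein inhibitor of calcium/calmodulin-dependent kinase II. It was counted 31, 32 and 32 times against 33, 38 and 39 times, or 2.13, 1.96 and 1.98 CPM against 2.19, 2.57 and 2.40 CPM. The groups did not overlap, while the log2 fold change of 0.24 (SE 0.24, 95% confidence interval -0.25 to 0.73) had an adjusted p of 0.765. In the other assembly *CAMK2N2* overlaps *ECE2*.

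Among the phosphatase subunits, *PPP2R3A* had the smallest p of all 17 genes. *PPP2R3A* (ENSBTAG00000023416) encodes a regulatory B″ subunit of protein phosphatase 2A, which directs that enzyme to its substrates. It gave 78.0, 79.5 and 72.6 CPM in the NC inhibitor libraries and 65.6, 63.4 and 71.4 CPM in the miR-375 inhibitor libraries. Every NC inhibitor library was above every miR-375 inhibitor library, with NC inhibitor replicate 3 and miR-375 inhibitor replicate 3 closest to each other. The means were 76.7 ± 3.63 CPM and 66.8 ± 4.13 CPM (SD, n = 3 each). The log2 fold change was -0.20 (SE 0.07, 95% confidence interval -0.33 to -0.06), or -12.8%, and edgeR gave an adjusted p of 0.146 (0.00449 unadjusted). The adjusted p of DESeq2 was 0.233 (0.0131 unadjusted). The unadjusted p was under 0.05 with each of the 6 libraries left out in turn, and without NC inhibitor replicate 3 the adjusted p was 0.0329, in a range of 0.0326 to 0.593 over the alternatives.

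*PPP1R2* (ENSBTAG00000006724) encodes inhibitor-2 of protein phosphatase 1. Its levels were 60.2, 60.7 and 62.3 CPM against 55.2, 55.7 and 63.9 CPM, and the log2 fold change was -0.07 (SE 0.07, adjusted p = 0.765). The miR-375 inhibitor replicates 1 and 2 lay below the NC inhibitor libraries and replicate 3 above them. The estimate was -0.14 without this replicate 3 and -0.029 and -0.035 without replicates 1 and 2. *PPP1R3F* (ENSBTAG00000021100) encodes a subunit of the family that brings protein phosphatase 1 to glycogen. It was counted 37, 42 and 26 times against 46, 40 and 45 times, or 2.54, 2.58 and 1.61 CPM against 3.05, 2.71 and 2.77 CPM. The CPM of the groups did not overlap, NC inhibitor replicate 3 was the lowest, and the log2 fold change of 0.35 (SE 0.23, 95% confidence interval -0.12 to 0.82) had an adjusted p of 0.650. The estimate was 0.15 without NC inhibitor replicate 3. In the other assembly *PPP1R3F* overlaps *FOXP3*.

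*PDE9A* (ENSBTAG00000021899) encodes a phosphodiesterase that breaks down cyclic GMP. It was counted 19, 18 and 11 times against 8, 14 and 14 times, and the groups overlapped with a log2 fold change of -0.39 (SE 0.40, 95% confidence interval -1.18 to 0.41, adjusted p = 0.765). The estimate of *PDE9A* was -0.18 without miR-375 inhibitor replicate 1, -0.19 without NC inhibitor replicate 1 and -0.62 without NC inhibitor replicate 3. Diacylglycerol kinases turn the lipid messenger diacylglycerol into phosphatidic acid. *DGKG* was counted 0, 0 and 2 times against 2, 0 and 0 times, and *DGKK* was at 0 in all 6 libraries. Of 5 genes of cyclic nucleotide signalling, *CNGA2* and *GUCY2F* were at 0, and none of the 3 tested (*ADCY5*, *AKAP4*, *AKAP14*) had an unadjusted p under 0.05. *ADCY5*, an adenylyl cyclase, had the smallest p of these, with 3, 3 and 1 counts against 1, 0 and 1.

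Eph receptors are receptor tyrosine kinases that bind ephrins on neighbouring cells. *EPHA3*, *EPHA6* and *EPHB1* had 0 counts in all 6 libraries, and *EPHB3* was counted 3, 0 and 4 times against 3, 4 and 3 times, which is too few for a comparison. Of 6 genes of ephrin signalling, all were tested and none had an unadjusted p under 0.05, with a median log2 fold change of -0.04. *TIAM1*, a Rac exchange factor, had the smallest unadjusted p of these (0.0642, log2 fold change -0.39, SE 0.21). Its counts of 44, 78 and 63 against 41, 45 and 52 overlapped. Without NC inhibitor replicate 2 the estimate was -0.21 and the unadjusted p 0.372, and without NC inhibitor replicate 1 that p was 0.0175 (adjusted p = 0.551).

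Genes of the same pathways outside the prefixes were counted in the same way. Of 18 genes of Ras and MAPK signalling, 16 were tested, 3 were lower at an unadjusted p under 0.05 (*TNIK*, *RASA2* and *RAP2B*), none was higher, and 0 passed the adjusted threshold in edgeR. Over all tested genes 5.96% were called lower at that unadjusted p, and 8.13% of those that averaged 10 counts or more. DESeq2 called 2 of the 16 before adjustment, *TNIK* and *RASA2*, and 0 of the 10 that it gave an adjusted p. The median log2 fold change of this list was -0.09. *TNIK* (ENSBTAG00000011742), a germinal centre kinase known as an effector of Rap2, gave 84.9, 78.7 and 68.4 CPM against 63.7, 67.9 and 65.8 CPM. The groups did not overlap, with NC inhibitor replicate 3 closest to the miR-375 inhibitor libraries. The log2 fold change was -0.23 (SE 0.07), with an adjusted p of 0.0741 (0.00148 unadjusted). The adjusted p of *TNIK* was 0.000895 without NC inhibitor replicate 3, 0.0431 without miR-375 inhibitor replicate 2 and 0.0342 with a robust fit, in a range of 0.000895 to 0.655 over the alternatives. In the other assembly *TNIK* overlaps *TMSB4*.

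*RASA2* (ENSBTAG00000015413) encodes a GTPase-activating protein that switches Ras off. It gave 46.0, 53.5 and 60.5 CPM against 45.1, 38.5 and 49.7 CPM, a log2 fold change of -0.26 (SE 0.08, unadjusted p = 0.00251, adjusted p = 0.105). The groups overlapped, and the estimate was -0.16 without NC inhibitor replicate 3 and -0.17 without miR-375 inhibitor replicate 2. The adjusted p was 0.0379 without miR-375 inhibitor replicate 3, in a range of 0.00633 to 0.427 over the alternatives. In the other assembly *RASA2* overlaps *MIR2285CF*, a microRNA gene. *RAP2B* (ENSBTAG00000055257) encodes a Rap2 GTPase. It gave 74.5, 72.0 and 61.2 CPM against 57.7, 66.3 and 62.0 CPM, a log2 fold change of -0.16 (SE 0.07, unadjusted p = 0.0308, adjusted p = 0.384). NC inhibitor replicate 3 lay among the miR-375 inhibitor libraries, and without it the estimate was -0.24 and the adjusted p 0.0334, in a range of 0.0334 to 0.828 over the alternatives. Without NC inhibitor replicate 1 the estimate was -0.10. The unadjusted p of *RAP2B* was 0.229 and 0.129 without NC inhibitor replicates 1 and 2, 0.194 and 0.0572 without miR-375 inhibitor replicates 1 and 3, 0.0659 with a minimum of 10 counts in total, 0.0703 with filterByExpr and 0.0825 with DESeq2.

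Among 21 other protein kinases, 19 were tested and *TNIK* alone had an unadjusted p under 0.05, with a median log2 fold change of -0.03. For this and the following lists, 5.96% of all tested genes were called lower and 4.67% higher at that unadjusted p. Of 14 genes of phosphoinositide and phospholipase signalling, 12 were tested and none had an unadjusted p under 0.05, with a median of -0.05. *GSK3B*, a kinase held in check by PI3K signalling, had the smallest unadjusted p of these (0.0658), at 81.2, 80.9 and 84.2 CPM against 77.2, 72.5 and 77.1 CPM. Its groups did not overlap and its log2 fold change was -0.12 (SE 0.06) and filterByExpr gave an adjusted p of 0.377 (0.0456 unadjusted). None of 11 other phosphatases and their regulators had an unadjusted p under 0.05, all were tested, and the median was 0.08. *PP2D1* had the smallest unadjusted p of these (0.0618, log2 fold change 0.64, SE 0.33), with overlapping counts of 12, 18 and 21 against 14, 25 and 39. Its estimate was 0.27 (unadjusted p 0.477) without miR-375 inhibitor replicate 3, and its unadjusted p was 0.00859 without miR-375 inhibitor replicate 1 and 0.0317 without NC inhibitor replicate 3, with adjusted p of 0.320 and 0.303. Of 6 metabolic kinases, 5 were tested and none had an unadjusted p under 0.05. *PDXK*, which activates vitamin B6, had the smallest (0.0827), with a log2 fold change of -0.13 (SE 0.08) that was -0.074 without miR-375 inhibitor replicate 3. In these lists and in those of ephrin and cyclic nucleotide signalling, 0 genes passed the adjusted threshold with edgeR, where 1.69% of all tested genes did. Before adjustment DESeq2 called 1, *TNIK*, where it called 5.63% of all tested genes. DESeq2 passed none of those it gave an adjusted p, which were 9 of the 19 kinases, 4 of the 11 phosphatases, 3 of the 5 metabolic kinases, 3 of the 12 phosphoinositide genes, 4 of the 6 ephrin genes and 0 of the 3 cyclic nucleotide genes. Some genes, such as *TNIK* and *GSK3B*, stand in more than 1 of these lists.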

How the data were processed

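RNA-seq of 6 MAC-T libraries was analysed, with groups and replicate numbers as the sample titles give them. The design text of the series names miR-375 or NC, where the titles and the study name their inhibitors, and the titles were followed. The authors deposited raw counts per gene, made with HISAT2 and featureCounts on a bovine genome named in the submitters' notes as UMD 3.1, a build that was not checked, so no coordinates are given. Versions of these tools and the use of strand are not given in the sources used here. Gene symbols came from the study's gene tables, of which 1997 rows of the longer were at hand, and overlaps between genes from the RefSeq list of ARS-UCD2.0, in which all 24 symbols were found. Members and lists were chosen with earlier results of these data known.

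The groups were compared by the quasi-likelihood F test of edgeR 4.0.16 (R 4.3.3) after TMM normalization. The test had no block and covered the 20755 genes counted at least once in the 6 libraries, and p-values were adjusted over all of these by the Benjamini-Hochberg method. CPM are TMM-normalized. The exact permutation test used log2(CPM + 1) and Python 3.11.15 with scipy 1.17.1. The alternatives were a minimum of 10 counts in total, filterByExpr, DESeq2 1.42.0 (the tool of the study's methods), its size factors in edgeR, a robust fit, a block and each library left out. No library was a copy of another: chi-square over degrees of freedom was 3.01 to 11.2 between pairs. The fits were tested on simulated counts. Named genes were all members and, from each list, those with an unadjusted p under 0.05 or else the gene with the smallest p. Of cell type markers, the more abundant, those at or near 0 and those with an unadjusted p under 0.05 were named.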

Additional observations from a re-analysis of the deposited data

How the results depend on the processing

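Members with an unadjusted p under 0.05 numbered 4, and 1 with DESeq2, and between 1 and 4 with a library left out (2 without NC inhibitor replicate 1, 1 without miR-375 inhibitor replicate 1). Over all tested genes such calls numbered 2206 of 20755, and 1169 with DESeq2. They numbered 1543 of 20468 without NC inhibitor replicate 1, the fewest with a library left out, and 2677 of 20495 without NC inhibitor replicate 3, the most. Members with an adjusted p under 0.05 numbered 0, and 0 to 1 with a library left out, the 1 being *PPP2R3A* without NC inhibitor replicate 3. The median log2 fold change of the tested members was -0.05, and -0.085 to -0.027 with a library left out, lowest without NC inhibitor replicate 1 and highest without NC inhibitor replicate 3. Members whose groups did not overlap numbered 6, and 6 to 9 with a library left out, while the share over all genes that averaged 10 counts or more went from 17.9% to between 25.2% and 33.4%. Among the 15 members that averaged 10 counts or more, the sign turned for *STK26*, which was 0.038 without NC inhibitor replicate 3 and otherwise as low as -0.067, and for *CSNK1B*, which ran from -0.13 to 0.12; the cause was not tested. Over 25 genes and 12 alternatives, 267 of 288 values kept both sign and side of the threshold, another 11 from DESeq2 had no adjusted p, and filterByExpr dropped 1 gene, *LUM*.

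With the replicate number as a block, 1 member, *PPP2R3A*, had an adjusted p under 0.05 (0.0326), as did *TNIK* (0.00780), *RASA2* (0.00633) and *COL6A1* (0.0455), and 840 of all genes in place of 350. The unadjusted p of *GSK3B* and *TIAM1* fell under 0.05 with this block (0.0409 and 0.0482, adjusted p of 0.331 and 0.366). Deviations from the group means of same-numbered libraries correlated at -0.06, 0.15 and 0.34 over 14154 genes, which are not independent. Between different-numbered libraries these correlations ran from -0.36 to 0.25. The values do not settle whether the numbers pair the libraries, and the main test had no block. NC inhibitor replicate 1 correlated best with miR-375 inhibitor replicate 2 (0.25), and NC inhibitor replicates 2 and 3 with the miR-375 inhibitor libraries of the same number.

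Over all genes, 74 had an adjusted p under 0.05 with DESeq2, 0 with a minimum of 10 counts or filterByExpr (1972 and 1844 at an unadjusted p under 0.05), and 0 to 756 with a library left out. Of the 15, *PDE9A*, *NEK11*, *CAMK2N2*, *PPP1R3F* and *CSNK1B* had the fewest counts, with standard errors of 0.23 to 0.40 on the log2 scale, where the median of the 15 was 0.082. The size of difference that could be detected at these counts was not tested.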
